A study of Arabidopsis thaliana with 116 samples.

Results

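The plastid NDH complex genes ndhA, ndhC, ndhE, ndhF, ndhG and ndhI were followed in developing seeds of Arabidopsis thaliana. They were taken as the probe sets annotated to these plastid genes and to no other gene, and each of the 6 had 1 such probe set. They are 6 of 69 plastid genes with a probe set of 1 gene, and 6 of 22746 probe sets tested. Probe sets for 4 more plastid ndh genes, ndhD, ndhH, ndhJ and ndhK, were set beside them.

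The NDH complex sits in the thylakoid membrane of the plastid. It passes electrons from reduced ferredoxin back to the plastoquinone pool, which feeds cyclic electron flow around photosystem I and chlororespiration. NdhA, NdhC, NdhE, NdhF and NdhG are subunits of its membrane arm, NdhF being a large antiporter-like subunit of the proton path, and NdhI is an iron-sulphur subunit of the arm that faces the stroma. In the plastid genome ndhC lies with ndhK and ndhJ, while ndhE, ndhG, ndhI and ndhA lie in a row of ndh genes that also holds ndhD and ndhH, and ndhF stands apart from both. Other subunits and most assembly factors are encoded in the nucleus.

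The seeds came from 116 recombinant inbred lines made from the accessions C24 and Col-0 crossed in both directions. Of these, 59 lines had names beginning with Q and 57 had names beginning with R, and the labels do not state which letter stands for which cross direction. Each line was 1 pool of seeds from 8 siliques on each of 6 plants, taken 10 to 11 days after flower opening and hybridised to 1 Affymetrix array. All lines shared the same long-day growth, with 16 h of light, and the labels name no treatment. The deposited values are log2 signals normalised by RMA. The p-values below measure the spread between lines, because a line was not measured more than once.

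Array medians lay between 5.84 and 5.99, and precision is limited by how many arrays there were. R162 was the line least like the rest, with a median correlation of 0.973 against 0.981 for the next lowest. Probe sets for 27 Bacillus subtilis control sequences, which Arabidopsis does not express, had means from 3.07 to 4.95 with a median of 3.37. A listed gene was counted as having a probe set only where a probe set was annotated to that gene alone. Of 22746 probe sets, 8730 had no annotated gene, so other listed genes may be on the array unnamed. Embryo maturation genes had a probe set for 5 of 12 genes, all with means from 13.12 to 13.81. The endosperm genes AGL62 and IKU2, 2 of 7, were at 3.24 and 4.35. In such bulk tissue, fewer cells of a type and less RNA per cell cannot be told apart.

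Of the 6 genes, 3 were lower in Q than in R lines and 0 were higher. The 3 were ndhC, ndhI and ndhA, with differences of 0.28, 0.17 and 0.23 on the log2 scale. The signals of ndhE, ndhG and ndhF did not pass the test and were spread over a far wider range of levels. Among all probe sets, limma with Benjamini-Hochberg adjustment and a threshold of 0.05 called 282 lower in Q lines, or 1.24%, 416 higher, or 1.83%, and 698 in either direction, or 3.07%. Among the 63 other plastid genes it called 9 lower in Q lines, or 14.3%, and 18 in either direction, or 28.6%. The median difference over the 6 genes was -0.06, against -0.00424 over all probe sets. Where the parents' plastid genomes differ in sequence under the probes, a probe set value cannot separate that from transcript level, so sequence and level cannot be told apart here.

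**Figure D1:**
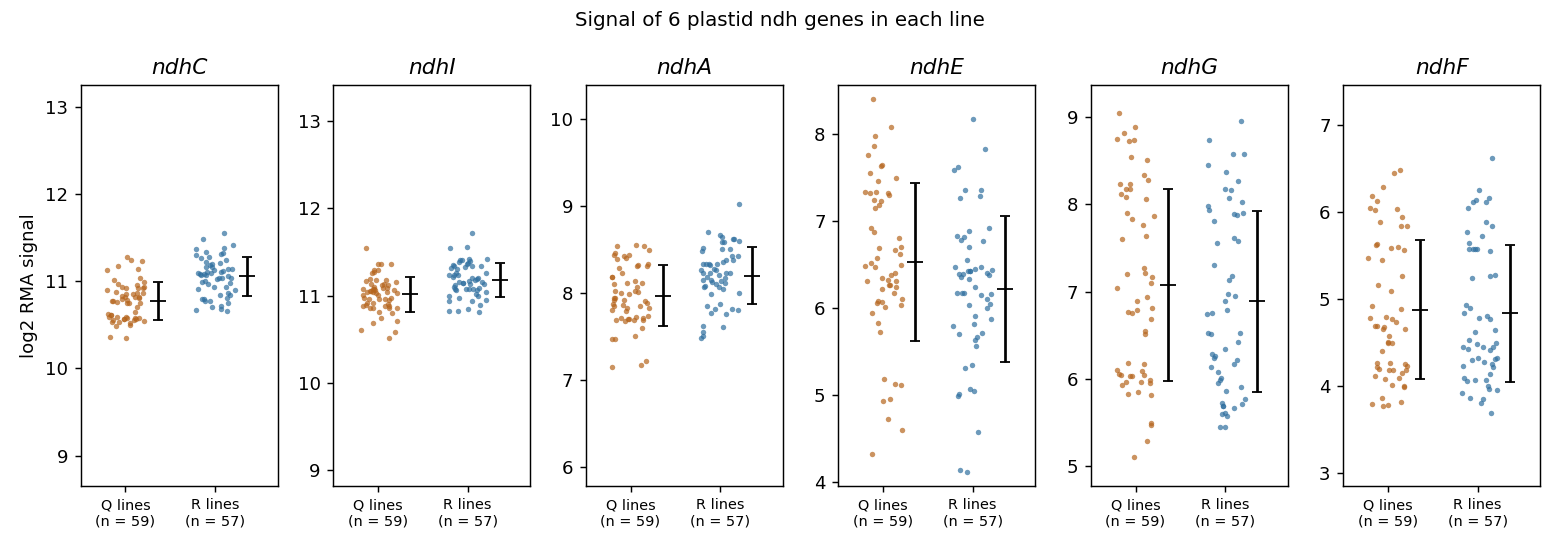
Each point is 1 line, with log2 RMA signal on the vertical axis, Q lines (n = 59) in orange and R lines (n = 57) in blue; the bar is the mean ± SD, and every panel spans the same number of log2 units. The points of ndhC, ndhI and ndhA are packed closely and shifted down in Q lines, while those of ndhE, ndhG and ndhF are spread widely in both letters.

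The gene ndhC encodes a small membrane subunit. Its signal in Q lines ran from 10.36 through a median of 10.78 to 11.28, and in R lines from 10.66 through 11.07 to 11.55. The groups overlapped, but 49 of 57 R lines lay above the Q median and only 6 of 59 Q lines lay above the R median. The means were 10.77 ± 0.22 (SD, n = 59) and 11.06 ± 0.219 (SD, n = 57), so Q lines were lower by -0.28 ± 0.0405 (SE), a signal 1.22-fold higher in R lines (adjusted p = 4.77e-07, limma). The letter of the line accounted for 29.4% of the variance of ndhC. The 3 highest lines were R162 at 11.55, R199 at 11.48 and R038 at 11.41, and the 3 lowest were Q000 and Q118, both at 10.36, and Q168 at 10.49.

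The iron-sulphur subunit gene ndhI ran from 10.52 through a median of 11.04 to 11.54 in Q lines, and from 10.81 through 11.17 to 11.72 in R lines. Only 2 R lines lay above the highest Q line, and 8 Q lines lay below the lowest R line. The means were 11.02 ± 0.201 (SD, n = 59) and 11.18 ± 0.195 (SD, n = 57), a difference of -0.17 ± 0.0365 (SE) and a fold of 1.12 (adjusted p = 0.00665, limma). The letter accounted for 15.1% of its variance. R162, R006 and Q148 were the highest lines, at 11.72, 11.55 and 11.54, and Q118, Q203 and Q087 were the lowest, at 10.52, 10.58 and 10.61.

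The membrane subunit gene ndhA ran from 7.15 through a median of 7.94 to 8.55 in Q lines, and from 7.48 through 8.23 to 9.02 in R lines. Here 9 R lines exceeded every Q line, and 5 Q lines lay below every R line. The means were 7.97 ± 0.346 (SD, n = 59) and 8.20 ± 0.332 (SD, n = 57), a difference of -0.23 ± 0.0623 (SE) and a fold of 1.17 (adjusted p = 0.026, limma). The letter accounted for 10.5% of the variance, and most of the spread of ndhA lay between lines of the same letter. R006 at 9.02, R205 at 8.70 and R211 at 8.67 were highest, and Q118 at 7.15, Q134 at 7.17 and Q111 at 7.22 were lowest.

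Over all probe sets called between the letters, the median absolute difference was 0.144 log2, and each of these 3 differences was larger than that. Many other called plastid genes differed more, up to -1.21 for clpP, -1.05 for rps2 and 0.91 for psbE. A few differed less, the least being psbM at 0.14. With 10 principal components as covariates, the calls of ndhI (-0.07, adjusted p = 0.499) and ndhA (-0.15, adjusted p = 0.387) were lost, and that of ndhC was kept (-0.21, adjusted p = 0.00471, limma). The first component, with 12.8% of the variance, correlated with ndhI at 0.55, with ndhC at 0.366 and with ndhA at 0.322 over the 116 lines. Letter means were not subtracted for these 3 values, so they include any difference between letters. A measure of RNA quality, the 3′ minus 5′ signal of control transcripts, also differed between letters, at 1.32 ± 0.497 in Q lines (SD, n = 59) and 1.13 ± 0.569 in R lines (SD, n = 57; two-sided permutation p = 0.0484). With that measure as a covariate, all 3 calls were kept.

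Nuclear photosynthesis genes had a probe set for 2 of 10 genes, and neither was called between letters, although both reached an unadjusted p under 0.05. LHCB4.1, which encodes an antenna protein of photosystem II, was at 10.98 ± 0.283 in Q lines (SD, n = 59) and 11.09 ± 0.294 in R lines (SD, n = 57). PORB, an enzyme of chlorophyll synthesis, was at 7.25 ± 0.387 in Q lines and 7.46 ± 0.53 in R lines. The summed signal of the 2 genes ran from 10.19 to 11.62 log2 in Q lines and from 10.65 to 11.97 in R lines. Both means were lower in Q lines, as were those of ndhC, ndhI and ndhA. The within-letter correlations of LHCB4.1 were 0.163 with ndhC, 0.344 with ndhI and 0.130 with ndhA, and those of PORB were 0.337, 0.544 and 0.341. Seed coat genes had a probe set for 3 of 8 genes, and all 3 had lower means in Q lines without being called, with 1 at an unadjusted p under 0.05. Q minus R was -0.09 for BAN, -0.11 for DFR, both of flavonoid synthesis, and -0.20 for AT3G50990. Their within-letter correlations with ndhI were 0.318, 0.164 and 0.294, with ndhC 0.179, 0.0230 and 0.242, and with ndhA 0.282, 0.195 and 0.252. Their summed signal ran from 8.80 to 10.07 log2 in Q lines and from 8.77 to 10.81 in R lines. The part of the photosynthesis and seed coat genes in the result was not tested.

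The other 3 genes showed broad spreads and were not called between letters. For ndhE, a small membrane subunit gene, Q lines ran from 4.32 through a median of 6.48 to 8.40, and R lines from 4.12 through 6.33 to 8.17. Only 16 of 57 R lines lay above the Q median, while 34 of 59 Q lines lay above the R median. The means were 6.53 ± 0.91 (SD, n = 59) and 6.22 ± 0.835 (SD, n = 57). The difference of 0.31 ± 0.16 (SE) did not pass the test (adjusted p = 0.29, limma), and its 95% interval ran from -0.01 to 0.62. Across all 116 lines the signal of ndhE spanned 4.28 log2, with Q148 (8.40), R061 (8.17) and Q220 (8.08) highest and R006 (4.12), R009 (4.14) and Q000 (4.32) lowest. These 3 low values lie within the range of the Bacillus subtilis controls, so no fold is given.

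For the membrane subunit gene ndhG, Q lines ran from 5.10 through a median of 6.94 to 9.05, and R lines from 5.45 through 6.74 to 8.96. The 2 letters covered nearly the same range. The means were 7.08 ± 1.1 (SD, n = 59) and 6.89 ± 1.04 (SD, n = 57), with a difference of 0.19 ± 0.196 (SE) and a 95% interval from -0.20 to 0.58 (adjusted p = 0.655, limma). The span over all lines was 3.95 log2. Q148 (9.05), R061 (8.96) and Q219 (8.89) were the highest lines, and Q047 (5.10), Q021 (5.29) and R116 (5.45) the lowest.

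The signal of ndhF, the antiporter-like subunit gene, lay near that of the controls. Q lines ran from 3.77 through a median of 4.69 to 6.48, and R lines from 3.70 through 4.52 to 6.62, so the lower lines lay inside the range of the Bacillus subtilis controls. The means were 4.88 ± 0.80 (SD, n = 59) and 4.84 ± 0.789 (SD, n = 57), with a difference of 0.04 ± 0.146 (SE) and a 95% interval from -0.25 to 0.33 (adjusted p = 0.914, limma). The span was 2.92 log2, with its low end at control level, from R165 (3.70), Q111 (3.77) and Q221 (3.78) to Q108 (6.44), Q219 (6.48) and R061 (6.62).

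The within-letter SD separated the 2 sets of genes. It was 0.874 for ndhE, 1.07 for ndhG and 0.794 for ndhF, against a median of 0.168 over all probe sets, and 99.2%, 99.6% and 99.1% of probe sets varied less than each. Such a spread was not particular to ndh genes. Among other plastid genes the SD was 1.03 for psbT, 1.01 for psbA and 0.952 for petN, while the lowest was 0.17 for psbM. The SD of ndhI was 0.198, that of ndhC 0.22 and that of ndhA 0.339, which 65.8%, 72.9% and 90.5% of probe sets fell below. The 2 sets were drawn after these values had been seen, so they serve as a description and carry no test.

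In a mixture of 2 normal components, ndhF was the only 1 of the 6 that met the rule for 2 modes, which asks for modes at least 4 SD and 1 log2 apart. Over all probe sets 225 met it, or 0.989%. The modes of ndhF lay at 4.34 and 5.81, a distance of 1.47 log2 or 4.11 SD. The upper mode held 41 lines and the lower 75, and for 6 of these 116 lines the posterior of the upper mode lay between 0.1 and 0.9. The modes of ndhG lay at 6.20 and 8.09, 3.65 SD apart, just short of the rule, with 47 lines in the upper mode and 14 lines with a posterior from 0.1 to 0.9. The lower mode of ndhF lies within the range of the Bacillus subtilis controls, so its distance from the upper mode is a difference of signals and may understate one of transcripts. For ndhE the 2 components were 1.99 SD apart, and a single component was preferred.

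The 6 genes split the same way when lines were followed from gene to gene. Within letters, ndhF and ndhG correlated at 0.943 over 116 lines (rho 0.925), ndhE and ndhG at 0.852 (rho 0.878), and ndhE and ndhF at 0.788 (rho 0.834). Each had an adjusted permutation p of 3.8e-05 over 42 tests of 21 relations, from the smallest unadjusted p that 100000 permutations could give. Because ndhF has 2 modes, its correlations were also taken within each mode. With ndhG they were 0.768 in the upper mode and 0.765 in the lower, and with ndhE they were 0.618 and 0.50. Without the 2 lines farthest from the median, the correlations of ndhF with ndhG, ndhE with ndhG and ndhE with ndhF were 0.940, 0.861 and 0.797.

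Among the other 3, ndhA and ndhI correlated at 0.711 (rho 0.720, adjusted p = 3.8e-05), ndhC and ndhI at 0.495 (rho 0.441, adjusted p = 3.8e-05), and ndhA and ndhC at 0.426 (rho 0.453, adjusted p = 7e-05, permutation). Without the 2 farthest lines these were 0.717, 0.461 and 0.457. Taken by letter, ndhA and ndhI correlated at 0.665 in Q lines and 0.763 in R lines. All 3 relations therefore held in the same direction within each letter, the lowest being 0.332 for ndhA and ndhC in Q lines.

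Between the 2 sets, the 9 correlations ran from -0.061 to 0.248. The highest, ndhA with ndhF, passed as Pearson's r (0.248, adjusted p = 0.023) but not as rho (0.156, adjusted p = 0.17, permutation). It was 0.383 in Q lines and 0.10 in R lines. It was 0.585 in the upper ndhF mode and -0.206 in the lower mode, where ndhF lies within the control range. The modes were drawn from ndhF itself, and a difference between them in this correlation was not tested. The other 8 did not pass the test with either measure. All genes were read on the same arrays, so these relations share library and normalisation.

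**Figure D2:**
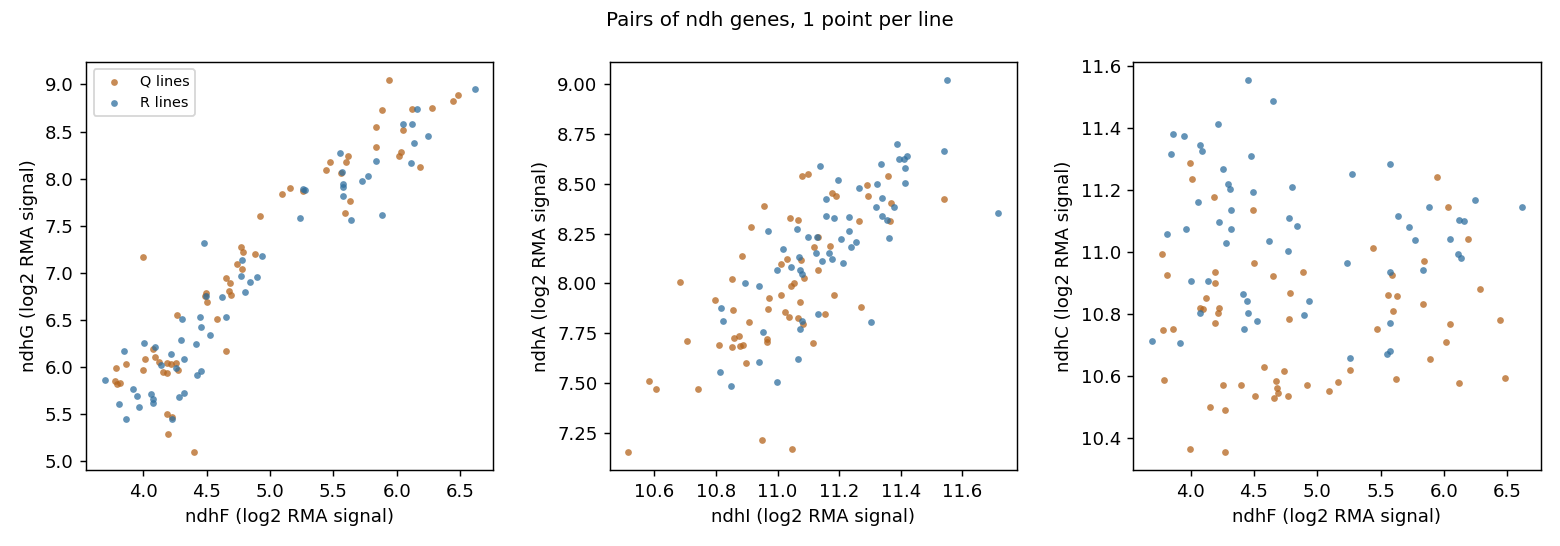
Each point is 1 line (Q lines orange, R lines blue) and both axes are log2 RMA signal. ndhG rises with ndhF over the whole range (r within letters 0.943), ndhA rises with ndhI (0.711), and ndhC shows no trend with ndhF (-0.03).

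Single lines at the ends of the ranges showed this split in part. Q148 was the highest line for ndhE and ndhG and also for ndhD, ndhH, ndhJ and ndhK, and ranked 16 of 116 for ndhF. In the other set Q148 ranked 3 for ndhI, 14 for ndhC and 23 for ndhA, so this line was high in both. In R006, ndhA ranked 1 and ndhI ranked 2, while ndhE was the lowest of all 116 lines. Q118 was the lowest line for ndhA and ndhI and ranked 115 for ndhC, and it ranked 49 for ndhG and 66 for ndhE. In the same line ndhF (4.00), ndhD (6.39) and ndhH (3.45) also lay near the low end of all lines, while ndhK ranked 37 and ndhJ 44. These lines were chosen because they lay at an end of a gene's range.

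By their correlations, the 4 ndh genes beside the 6 fell with the wide set. By spread they did so less clearly. The within-letter SD was 0.657 for ndhD, 0.651 for ndhJ and 0.514 for ndhK. That of ndhH, 0.338, was near that of ndhA, 0.339. The 4 genes were then set against the 6. Their within-letter correlations with ndhE, ndhF and ndhG ran from 0.723 to 0.868, and those with ndhA, ndhC and ndhI from -0.0986 to 0.362. The 4 genes correlated with each other at 0.768 to 0.889. Like the wide set, they were not called between letters: Q minus R was 0.17 for ndhJ (adjusted p = 0.469), 0.21 for ndhK (adjusted p = 0.19), -0.08 for ndhD (adjusted p = 0.784) and 0.04 for ndhH (adjusted p = 0.753, limma). Of the 10 plastid ndh genes with a probe set of 1 gene, 7 thus varied together. Among them were hydrophilic (ndhH, ndhJ, ndhK) and membrane subunits (ndhD, ndhE, ndhF, ndhG). These 7 genes were also the dimmer ones, with means over all lines from 3.83 for ndhH to 7.39 for ndhD. The means were 8.08 for ndhA, 10.91 for ndhC and 11.10 for ndhI. The part of signal level in the split was not tested.

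**Figure D3:**
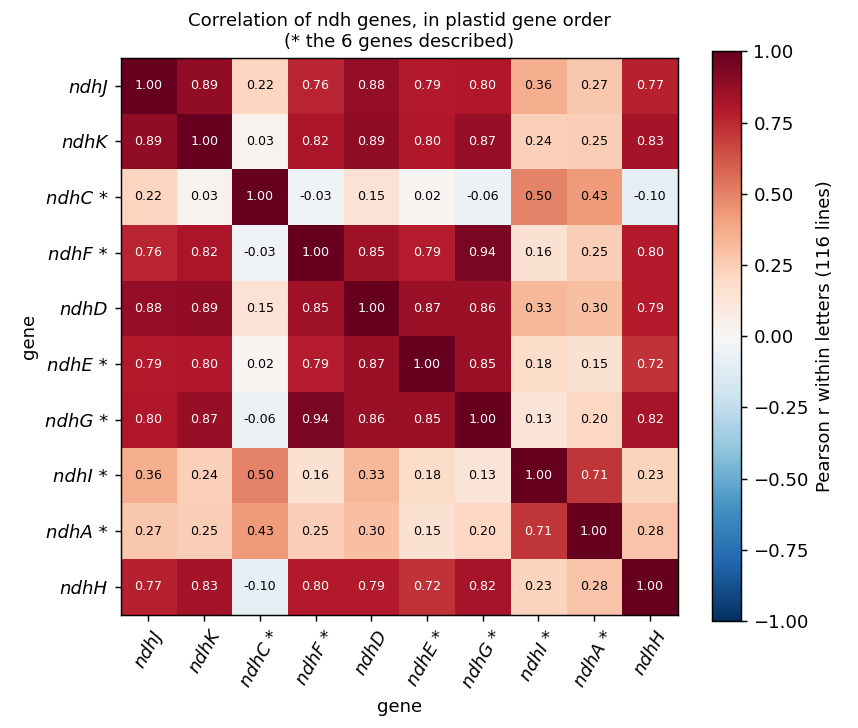
Cells give Pearson's r over 116 lines after each letter's mean was subtracted. Shown are the 10 ndh genes with a probe set of 1 gene, in plastid gene order, and an asterisk marks the 6 genes described. ndhC, ndhI and ndhA form pale rows, with values from -0.0986 to 0.362 against the 4 other ndh genes, in an otherwise dark red field.

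The split cut across genes that lie next to each other. In the order psaC, ndhE, ndhG, ndhI, ndhA, ndhH, the correlation between neighbours was 0.780 for psaC with ndhE and 0.852 for ndhE with ndhG. It was 0.125 for ndhG with ndhI, 0.711 for ndhI with ndhA and 0.283 for ndhA with ndhH. The neighbours ndhK and ndhC correlated at 0.0328, while ndhC correlated at 0.645 with atpE, the ATP synthase gene on its other side. The correlation of ndhF with its neighbour rpl32, a ribosomal protein gene, was 0.276.

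Differences between neighbours in Q minus R were tested by permutation of the letters in 8 pairs. They were largest for ndhK and ndhC, at 0.50 (adjusted p = 0.00012), with Q minus R of 0.21 and -0.28. For ndhC and atpE it was -0.27 (adjusted p = 8e-05, from the smallest p that the permutations could give), since atpE had a Q minus R of -0.00884. For ndhA and ndhH it was -0.27 (adjusted p = 0.00101). The means of ndhH, 3.85 in Q and 3.80 in R lines, lay within the range of the Bacillus subtilis controls. A difference between letters in ndhH may therefore not have been detectable. For psaC and ndhE the difference between neighbours was -0.23 (adjusted p = 0.0503), and for ndhG and ndhI 0.35 (adjusted p = 0.127). The pairs ndhI and ndhA, ndhE and ndhG, and ndhF and rpl32 did not pass either, with adjusted p from 0.203 to 0.553. A difference between letters in ndhC was therefore not shared by either neighbour to the same degree, although ndhC and atpE varied together within letters.

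**Figure D4:**
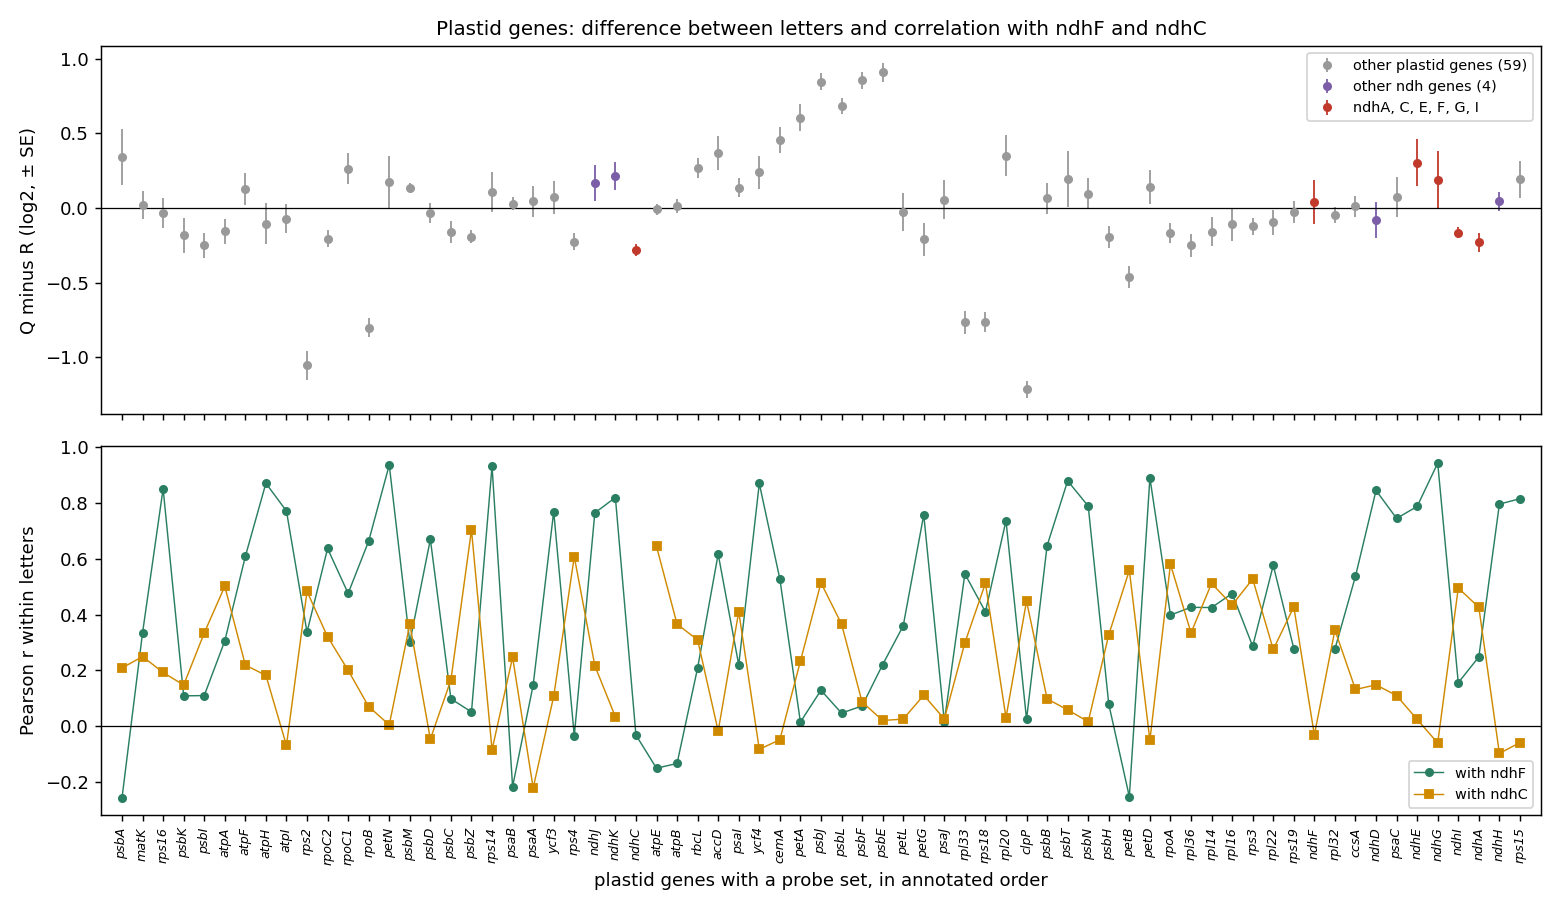
Upper panel, Q minus R (log2, ± SE) for 69 plastid genes in annotated order; lower panel, Pearson's r within letters with ndhF (green circles) and ndhC (orange squares), leaving out each gene's correlation with itself. High values with ndhF (ndhG 0.943, petN 0.937, rps14 0.933) are scattered along the order, and adjacent genes often differ, as ndhG and ndhI do.

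The named probe sets most like each gene were mostly plastid genes of other complexes. For ndhF they were ndhG, petN (0.937, a small cytochrome b6f subunit), rps14 (0.933, a ribosomal protein), AT2G07721 (0.895) and petD (0.891, cytochrome b6f). For ndhG they were ndhF, rps14 (0.931), petN (0.914), the photosystem I assembly gene ycf4 (0.908) and the photosystem II gene psbT (0.901). For ndhE they were ycf4 (0.889), ndhD (0.867), rpl20 (0.860), rps15 (0.859) and psbT (0.854). In all 3 lists, genes for photosynthesis stood beside genes for plastid ribosomes. Probe sets with no annotated gene or with several were left out of the lists. The highest correlation of a probe set with no annotated gene was 0.922 with ndhF, 0.946 with ndhG and 0.878 with ndhE.

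For ndhC the most alike were the photosystem II gene psbZ (0.703), atpE (0.645), rps4 (0.608), the RNA polymerase gene rpoA (0.580) and petB (0.558, cytochrome b6f). For ndhI they were rps3 (0.738), ndhA (0.711), rpoA (0.702), rps18 (0.698) and rpl22 (0.655). For ndhA they were ndhI (0.711), rpl22 (0.711), psbJ (0.645), rps3 (0.636) and psbL (0.589). Of the genes most like ndhC, psbZ (-0.19, adjusted p = 0.00925), rps4 (-0.23, adjusted p = 0.0174) and petB (-0.46, adjusted p = 7.67e-06) were also lower in Q lines, and so was rps18 (-0.77, adjusted p = 1.84e-17, limma) among those most like ndhI. Of those most like ndhA, psbJ and psbL were higher in Q lines by 0.85 and 0.68, while ndhA was lower.

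The least alike named probe sets were nuclear. AT2G21390 had the lowest correlation with ndhF (-0.684) and with ndhG (-0.615), followed for both by AT4G31200 (-0.622 and -0.572). For ndhE the lowest were AT1G50380 (-0.510) and AT2G21390 (-0.504). For ndhC they were AT5G01010 (-0.497) and AT2G38710 (-0.487), for ndhI AT4G08170 (-0.587) and AT4G04760 (-0.581), and for ndhA AT1G78690 (-0.580) and AT5G05100 (-0.573). The 3 genes of the wide set thus shared their opposite in AT2G21390, and no gene was shared among the 2 lowest of ndhC, ndhI and ndhA.

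Nuclear pseudogenes also differed in how they tracked the 2 sets. Of 989 probe sets annotated to a nuclear pseudogene, 56 (5.66%) correlated at 0.5 or more with ndhF, 57 (5.76%) with ndhG and 43 (4.35%) with ndhE. For ndhC, ndhI and ndhA the count was 0 of 989. Of 12378 nuclear gene probe sets the counts were 47 (0.38%) for ndhF, 41 (0.331%) for ndhG and 13 (0.105%) for ndhE, and 1, 30 and 7 for ndhC, ndhI and ndhA. Among the 68 other plastid probe sets they were 30 (44.1%) for ndhF and for ndhG, 34 for ndhE, 10 (14.7%) for ndhC, 12 (17.6%) for ndhI and 9 (13.2%) for ndhA. Of 18 mitochondrial probe sets they were 4 (22.2%) for ndhF and for ndhG and 3 (16.7%) for ndhE. For ndhC, ndhI and ndhA they were 0 of 18.

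The series was collected to map loci that control expression, so each gene was also tested against the nuclear genome. Lines were scored in 90 chromosome bins from 124 nuclear genes whose signals had 2 modes. The effect of a bin is the log2 difference between the ends of its score, which runs from 0 to 1. With limma, 0 of the 6 genes were associated with a bin. Of all probe sets 10169, or 44.7%, were, a share that includes the marker genes and nuclear genes lying in a bin. Of the other plastid genes 6 of 63 were associated, or 9.52%, and they were psbE, psbF, psbL, clpP, psaA and cemA. A count of 0 among 6 genes is not set apart from that plastid share. The share was 44.2% for nuclear genes and 8.7% for nuclear pseudogenes.

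The leading bin of ndhI was marked by AT4G29200 on chromosome 4, with an effect of 0.14 ± 0.0425 (SE, adjusted p = 0.179). That of ndhC was marked by AT2G33220 on chromosome 2, at 0.13 ± 0.0397 (adjusted p = 0.255). That of ndhA was marked by AT2G29995 on chromosome 2, at 0.18 ± 0.0607 (adjusted p = 0.462, limma). At an unadjusted p under 0.05, ndhI had 17 of 90 bins, ndhC 15 and ndhA 14, while ndhF had 2, ndhG 1 and ndhE 0. Neighbouring bins share recombination history, so these counts are not of independent places.

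For the wide set the leading bins were those of AT5G42240 on chromosome 5 for ndhF (0.32 ± 0.144), AT1G80960 on chromosome 1 for ndhG (-0.45 ± 0.199) and AT5G41250 on chromosome 5 for ndhE (-0.28 ± 0.16), each with an adjusted p of 1. The farthest 95% bound on the effect of any bin was 0.603 log2 for ndhF, 0.848 for ndhG and 0.614 for ndhE. The highest absolute correlation of ndhF with any marker gene was 0.310. Loci between bins, and several bins together, were not tested.

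**Figure D5:**
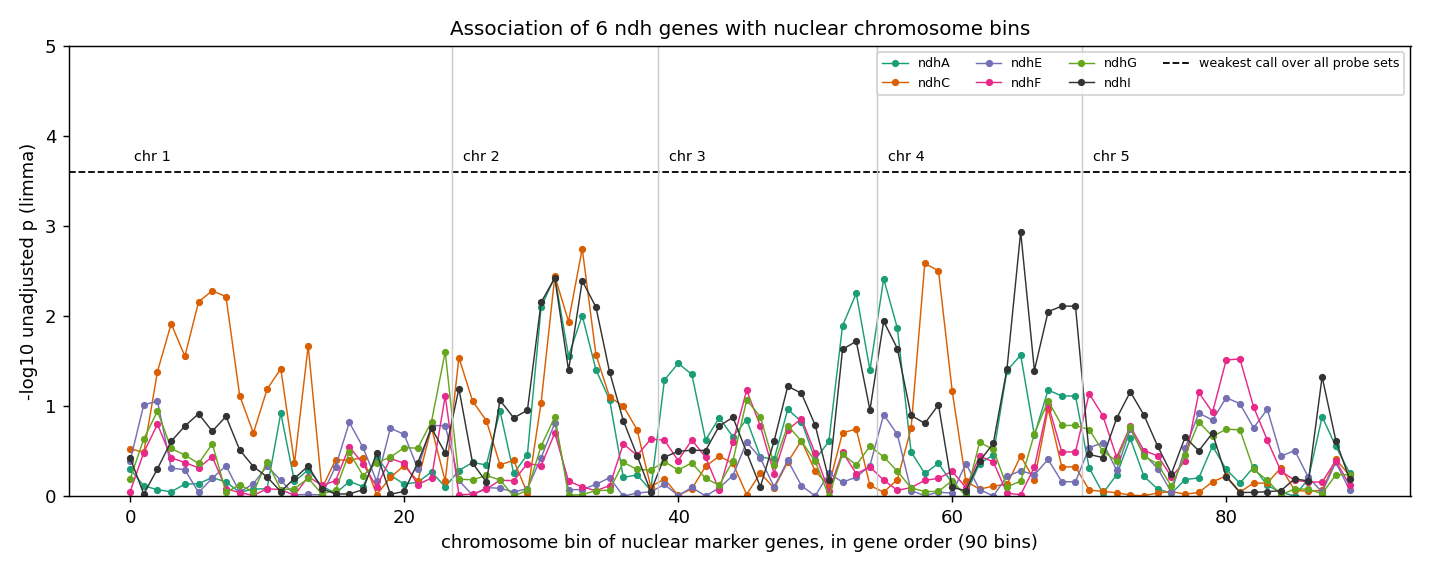
Each point is the -log10 unadjusted limma p of 1 gene in 1 of 90 bins of nuclear marker genes, in gene order from chromosome 1 to 5; the dashed line is the weakest p called over all probe sets (0.000248). No point of the 6 genes reaches the line, and ndhI, ndhC and ndhA come closest.

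Whether the leading bin acted differently in Q and R lines was asked with an interaction term. After adjustment 0 of 22746 probe sets passed, or 0%, and 1277 had an unadjusted p under 0.05, or 5.61%. Of the 6 genes 0 did so at either level. The smallest p was that of ndhF, with an interaction of -0.49 ± 0.287 (SE, unadjusted p = 0.0924, adjusted p = 0.946), followed by ndhE at 0.51 ± 0.317 (unadjusted p = 0.109, limma).

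The nuclear side of the complex was sparsely covered. Of 53 genes in 5 lists (nuclear subunits, assembly factors, RNA processing factors, plastid transcription and cyclic electron flow) 15 had a probe set. Between letters 0 of 15 were called in either direction with limma and 2 had an unadjusted p under 0.05. Most of the 15 had means within the range of the Bacillus subtilis controls, where a difference may not have been detectable. The median Q minus R of the 15 genes was -0.012, with a range from -0.08 to 0.10, against -0.00424 over all probe sets. The 2 were the nuclear subunit gene NdhS (8.41, Q minus R -0.08, adjusted p = 0.201) and AT5G15700 (6.79, Q minus R 0.06). The within-letter correlations of the 15 genes with the 6 plastid genes ran from -0.403 to 0.345.

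In the bin scan 2 of the 15 genes, or 13.3%, were associated with a nuclear bin, against 44.7% of all probe sets and 44.2% of nuclear genes. These shares are at unlike signal levels, since most of the 15 had means within the control range. With only probe sets of a mean of at least 5 log2 tested, 8647 of 14172 were associated. NdhL, a subunit gene with a mean of 5.56, was associated with the bin of AT4G32240 on chromosome 4 (effect -0.18, adjusted p = 0.00773). AT2G04039, with a mean of 7.67, was associated with the bin of AT2G14460 on chromosome 2 (effect 0.20, adjusted p = 0.0482, limma). In the interaction test 0 of the 15 passed after adjustment and 1 had an unadjusted p under 0.05.

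NdhN, another nuclear subunit gene, had a mean of 4.90. Of 9 assembly factors 4 had a probe set, with PIFI, a post-illumination fluorescence factor, highest at 5.56 ± 0.325 (SD, n = 116). Of 10 RNA factors 5 had one, with the pentatricopeptide repeat genes CRR28 at 4.72 and CRR22 at 4.71. The cyclic flow gene PGRL1B was at 7.58. The means of NdhN, of the 5 RNA factors (3.60 to 4.72) and of the assembly factors other than PIFI (3.89 to 4.75) were low. All of them lay within the range of the Bacillus subtilis controls, so differences in these transcripts may not have been detectable.

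RNA quality was set against each of the 6 genes within letters. For ndhC the correlation was 0.233 (adjusted p = 0.035) with a rho of 0.218 (adjusted p = 0.055, permutation), and it was 0.398 in R lines and 0.0528 in Q lines. For ndhI it was 0.201 (adjusted p = 0.073). It did not pass for ndhE (0.158), ndhA (-0.102), ndhF (0.0564) or ndhG (0.0556). With ndhF, the seed coat genes had correlations of 0.0758 to 0.241 and embryo maturation genes -0.0834 to -0.0324. No embryo maturation gene was called between letters, and 1 had an unadjusted p under 0.05. The part of both lists in the spread of ndhF was not tested.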

How the data were processed

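The authors deposited RMA-normalised log2 signals of 22810 probe sets for 116 arrays, per the submitters' processing notes. RMA subtracts background, sets arrays to a common distribution and compresses dim signals. The RMA version, genome build, cDNA priming, batches and scan dates were not given in the sources used here. After 64 controls were left out, 22746 probe sets were tested. Of these 13513 had 1 gene, and 13436 of them matched a RefSeq gene table (TAIR10.1) by Entrez ID. The table was used for names and gene order alone. Another 8730 probe sets had no annotated gene and 503 had several.

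Letters, bins and interactions were fitted with limma 3.58.1 in R 4.3.3 over all probe sets, with Benjamini-Hochberg adjustment and a threshold of 0.05. Bin scores were mean mixture posteriors of nuclear genes with 2 modes in bins of 200 consecutive genes; the smallest p over bins was multiplied by 90 before adjustment. A mode rule also asked for a smaller share of at least 0.2 and a BIC gain of at least 10. Correlations used values with letter means subtracted and permutations within letters. Python 3.11.15, numpy 2.4.6, pandas 2.3.3, scipy 1.17.1 and matplotlib 3.10.9 were used, and the fits were tested on simulated data. The genes and lists were chosen with earlier results of these data known. Named were all plastid ndh genes with a probe set of 1 gene, their neighbours, and the 5 most and 2 least alike named probe sets per gene. Also named were list genes called or otherwise the 3 highest, leading bins and the 3 highest and lowest lines.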

Additional observations from a re-analysis of the deposited data

How the results depend on the processing

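The count of the 6 genes called between letters was 3 under 7 of 8 alternatives and 1 with 10 principal components as covariates. That setting also turned the sign of 2 differences that were not called either way, ndhF to a Q minus R of -0.0863 and ndhG to -0.0354; the cause was not tested. Over all probe sets, 33 were called with the components and 1257 with RNA quality as a covariate, against 698, and the components left 6211 associated with a bin against 10169. The count associated with a bin was 0 under 12 alternatives, with the lowest adjusted p 0.117 for ndhI, and the interaction count was 0 under 8. With modes at least 3 SD apart, 2 genes had 2 modes (ndhF and ndhG), and with 5 SD 0 had. The alternative without R162, chosen after seeing the data, changed none of these counts, and a filter at a mean of 5 log2 removed ndhF. No paired analysis was possible because each line is a different genotype and the numbers only name lines. Dim signal limits ndhF, ndhH and most nuclear factors.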
